A study of Mus musculus with 15 samples.

Results

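Genes for 8 transcription factors that mark nephron lineage and segment were taken by symbol from the deposited count table of a mouse kidney cell experiment. They are the nuclear receptor genes Hnf4a and Hnf4g, the paired box genes Pax2 and Pax8, the LIM homeobox gene Lhx1, the homeobox genes Emx1 and Emx2, and Tfcp2l1 of the CP2 family. These 8 genes are among 24421 listed, and all 8 had enough counts to be among the 13912 that were tested. RNA came from kidney cells of C57BL/6 mice, sequenced after a single passage of what the labels call primary proximal tubule cells. The mice were either wild type (WT) or carried a knockout of Diet1 (KO). There were 4 libraries for each of male WT, female WT and female KO, and 3 for male KO, and the ages of the mice are not given in the sources used here. Per the labels each group is a mixture of cells from 3 to 4 mice that was divided into technical replicates, so each group is 1 pool. Except in the fit over the 4 pools, every p-value below therefore measures the spread between libraries of a pool, not between mice or cultures. That fit has 1 value per pool and no second pool of any group. With sex and genotype as terms, what is left over in it is the difference of the KO effect between the sexes. Its p-values and intervals therefore do not measure spread between mice or cultures either. In bulk RNA of this kind, fewer cells of a type and less RNA per cell cannot be told apart.

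PAX2 and PAX8 are paired-domain proteins that act early and redundantly to set up the kidney lineage, and they stay on in much of the tubule. LHX1 and EMX2 are needed for the early nephric duct, ureteric bud and nephron tubule. HNF4A, with its close relative HNF4G, drives the mature program of the proximal tubule, and TFCP2L1 is best known from the distal nephron and collecting duct, where it shapes intercalated and principal cells.

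Library totals ran from 17648416 to 30896637 counts. The targeted gene Diet1, also named Malrd1, was not analysed here, and no check of the KO labels against it was made. Among 8 proximal tubule markers, of which 5 were tested, the phosphate carrier Slc34a1 had at most 3 counts in any library, the organic anion carrier Slc22a6 at most 1 and the glucose carrier Slc5a2 at most 13, while the endocytic receptor Lrp2 was at 20.95 ± 1.54 CPM (SD, n = 4) in male WT. CPM is a count scaled to a common library size with TMM factors. The summed CPM of those 8 markers ran from 77.0 to 79.3 in WT and from 61.2 to 62.1 in KO for male cells, and from 89.5 to 103.5 in WT and from 55.6 to 57.9 in KO for female cells. Most of that sum is Lrp2 and the brush border enzyme gene Ggt1, which were lower in KO in both sexes, while the other tested markers Cubn, Aqp1 and Slc3a1 were not called in either sex. Markers of other cells also differed between pools. Summed over 11 endothelial markers, all of which were tested, male WT libraries had 114.1 to 128.5 CPM, male KO 53.2 to 60.9, female WT 46.2 to 54.7, and female KO 52.0 to 68.1. Summed over 10 stromal markers, of which 8 were tested, male WT had 3521 to 3760 CPM, male KO 1845 to 2039, female WT 3623 to 3906, and female KO 2608 to 2839. The part of these differences in the results on the 8 factors was not tested.

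The factors fell into a well expressed set of 5 and a scarce set of 3. To compare genes, CPM was divided by the length of exon sequence in GENCODE M21 (GRCm38), in kilobases. Averaged over the 4 groups, the level per kilobase was 20.1 for Pax8, 18.7 for Emx2, 12.9 for Tfcp2l1, 10.2 for Pax2 and 7.13 for Lhx1. These lie above 81.8%, 80.3%, 71.7%, 65.5% and 56.0% of 13377 tested genes with a length. The scarce factors were at 0.590 for Hnf4g, 0.530 for Emx1 and 0.189 for Hnf4a, above 14.9%, 13.9% and 5.32% of those genes. Hnf4a thus stood lowest of the 8 in every group.

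Within the upper set the order per kilobase differed between pools. Pax8 (19.1 ± 0.866, SD, n = 4) and Emx2 (18.6 ± 0.392) had overlapping ranges in male WT, as they did in female WT, where Emx2 (22.4 ± 0.726) had the higher mean and Pax8 was at 21.3 ± 0.412. In male KO and female KO every library had Pax8 above Emx2. Tfcp2l1 and Pax2 changed places: Pax2 (11.96 ± 0.403) exceeded Tfcp2l1 (10.5 ± 0.344) in each female WT library, whereas Tfcp2l1 was above Pax2 in every library of the other groups. In male KO, Tfcp2l1 (15.9 ± 0.529) reached the range of Emx2 (17.1 ± 0.700). Among the scarce genes Hnf4g and Emx1 overlapped in all 4 groups. The place of Pax8 depends on the gene model, since its level is 35.9 per kilobase of its longest transcript, against 19.2 for Emx2. The order of Tfcp2l1 and Pax2 by library depends on the gene model too. Per kilobase of longest transcript they were at 12.2 ± 0.801 and 11.5 ± 0.522 (SD) in male WT, with overlapping ranges. In female KO they were at 13.6 ± 1.21 and 12.3 ± 0.203, again with overlapping ranges.

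**Figure D1:**
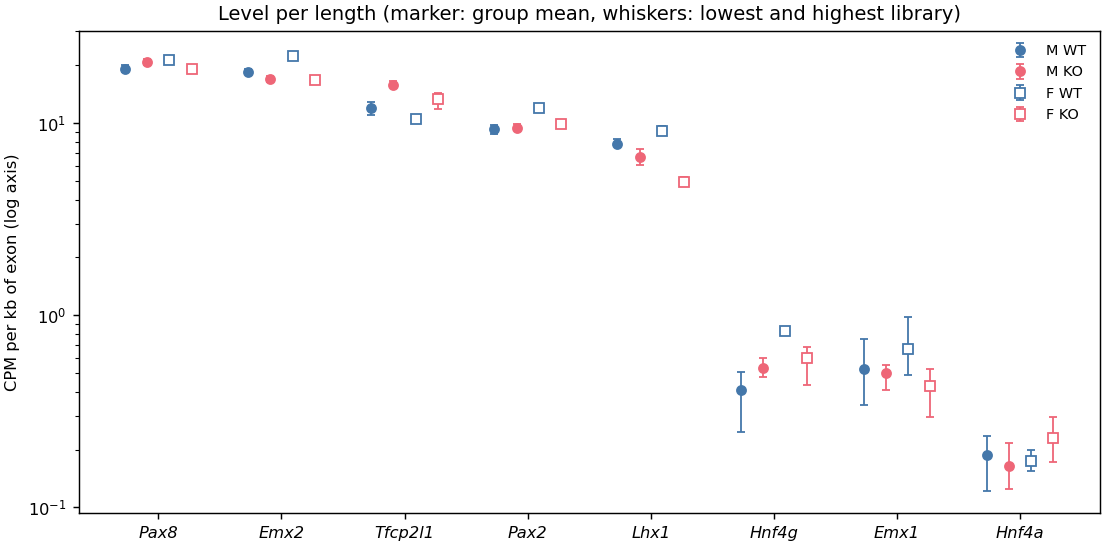
Level of each factor in CPM per kilobase of exon on a log axis. Markers are group means, whiskers run from the lowest to the highest library, blue is WT and red is KO, filled circles are male and open squares female. The upper 5 genes average 7.13 or more and the other 3 average 0.590 or less.

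Lhx1 was lower in KO in both sexes, and more so in female cells. Lhx1 encodes a LIM homeodomain protein of the nephric duct and early nephron (GRCm38 chromosome 11, 84518284 to 84525535, minus strand, 5 merged exons of 4.07 kb). The 250 bases before its RefSeq start site (GRCm38.p6), shown because Lhx1 has the clearest fall, run 5′ to 3′ on the strand of the gene, with capitals for a CCAAT match that reads ATTGG on this strand.
Lhx1, chr11:84525535-84525784, minus strand: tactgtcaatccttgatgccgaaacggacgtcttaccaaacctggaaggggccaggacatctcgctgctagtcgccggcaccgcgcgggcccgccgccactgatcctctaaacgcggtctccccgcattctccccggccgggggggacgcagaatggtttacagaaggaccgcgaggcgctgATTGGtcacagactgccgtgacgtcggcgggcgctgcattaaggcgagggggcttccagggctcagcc
Female WT libraries held 39.5, 36.1, 36.7 and 35.2 CPM, and female KO libraries 19.7, 20.2, 21.3 and 19.1 CPM. The groups did not overlap, and the highest KO library was well under the lowest WT library. The log2 fold change was -0.87 ± 0.057 (standard error), a 1.83-fold decrease (edgeR adjusted p = 1.87e-14), larger in size than that of 96.7% of the genes tested. Male WT libraries held 31.0, 33.5, 31.1 and 31.9 CPM, and male KO libraries 29.8, 27.3 and 24.5 CPM. These also did not overlap, by a small margin, and the log2 fold change was -0.23 ± 0.060 (edgeR adjusted p = 0.00562). The male call rests on male KO replicate 3, without which the value is -0.16 with an adjusted p of 0.107. The female effect exceeded the male effect by -0.65 ± 0.083 on the log2 scale (edgeR adjusted p = 4.80e-07).

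Lhx1os, a noncoding RNA that starts beside Lhx1 on the opposite strand and shares no exon with it, was lower as well in female KO. It went from 3.47 ± 0.645 to 2.15 ± 0.605 CPM (SD, n = 4 each) with a log2 fold change of -0.69 ± 0.17 (edgeR adjusted p = 0.00140), although 1 KO library at 3.00 CPM reached the WT range of 2.97 to 4.41 CPM. In male cells, where the ranges were just separate, the value was -0.30 ± 0.175 (edgeR adjusted p = 0.243). The ratio of Lhx1os to Lhx1 counts overlapped between WT and KO in both sexes, with means of 0.107 and 0.102 in male WT and KO and 0.0937 and 0.107 in female WT and KO.

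Emx2 moved in the same direction as Lhx1 but less. EMX2 is a homeodomain protein of the urogenital ridge and ureteric bud (chromosome 19, 59458372 to 59465357, plus strand). Female WT libraries held 68.3, 69.5, 66.0 and 64.6 CPM, and female KO libraries 50.7, 51.8, 49.4 and 49.2 CPM, with no overlap. This is a log2 fold change of -0.42 ± 0.038 (edgeR adjusted p = 8.50e-11). Male WT libraries held 55.6, 54.6, 57.4 and 55.3 CPM and male KO libraries 53.1, 49.0 and 51.6 CPM. The male groups were also separate. Yet the log2 fold change of -0.12 ± 0.042, larger in size than that of 59.7% of the genes tested, only just passed (edgeR adjusted p = 0.0343). It no longer passed with the DESeq2 Wald test (adjusted p = 0.0591), without a filter (0.0533), with only the male groups in the fit (0.0582), or without male WT replicate 3 (0.0901), male WT replicate 4 (0.0566), male KO replicate 2 (0.215) or male KO replicate 3 (0.0774). The female effect was further down than the male effect by -0.29 ± 0.057 (edgeR adjusted p = 2.64e-04).

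Emx2os is transcribed away from Emx2, and 264 bases of their exons overlap on opposite strands, which is 8.79% of the Emx2 exon length. The libraries were strand-specific per the labels, but the strand setting of the counting is not given in the sources used here, so reads from that stretch cannot be assigned with certainty. Emx2os was called lower in female KO (-0.27 ± 0.088, edgeR adjusted p = 0.0137) and not in male KO (-0.03 ± 0.095, adjusted p = 0.896). Its female ranges touched, at 9.76 to 11.7 CPM in WT and 7.93 to 9.94 CPM in KO. The ratio of Emx2os to Emx2 counts had means between 0.160 and 0.186 in the 4 groups and overlapped between WT and KO.

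Tfcp2l1 was the member that rose in both sexes. Its protein is a CP2-type factor of distal nephron and collecting duct epithelium (chromosome 1, 118627945 to 118685168, plus strand, 16 merged exons of 9.44 kb). Its upstream sequence, shown for the clearest rise, has a TATAAA match in capitals that starts 28 bases before the RefSeq start site.
Tfcp2l1, chr1:118627695-118627944, plus strand: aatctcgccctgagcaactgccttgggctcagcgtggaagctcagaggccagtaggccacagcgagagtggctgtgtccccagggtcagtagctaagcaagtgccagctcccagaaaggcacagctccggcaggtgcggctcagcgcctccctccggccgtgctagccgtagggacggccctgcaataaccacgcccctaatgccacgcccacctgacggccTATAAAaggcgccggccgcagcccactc
Male WT libraries held 104, 113, 122 and 114 CPM, and male KO libraries 148, 147 and 156 CPM. Female WT libraries held 97.1, 104, 97.7 and 97.3 CPM, and female KO libraries 112, 122, 134 and 136 CPM. In each sex every KO library was above every WT library. The log2 fold change was 0.41 ± 0.060 in male cells (edgeR adjusted p = 8.03e-05) and 0.35 ± 0.057 in female cells (edgeR adjusted p = 1.06e-04). The difference between the sexes was -0.06 ± 0.083, with a 95% confidence interval of -0.24 to 0.11 (edgeR adjusted p = 0.704), so a difference within that interval was not resolved.

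Pax2 was lower in female KO. Female WT libraries held 63.1, 63.1, 64.9 and 67.7 CPM, and female KO libraries 54.0, 53.8, 52.4 and 54.4 CPM, with no overlap (log2 fold change -0.27 ± 0.040, edgeR adjusted p = 1.13e-06). Male WT libraries held 50.1, 52.7, 47.3 and 51.1 CPM and male KO libraries 53.6, 50.3 and 49.6 CPM, which overlap. The male log2 fold change was 0.03 ± 0.044 with a 95% interval of -0.06 to 0.12 (edgeR adjusted p = 0.726). The effects differed between the sexes by -0.30 ± 0.060 (edgeR adjusted p = 3.50e-04). Pax2 lies on chromosome 19 (44756045 to 44837871, plus strand).

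Pax8 went in opposite directions in the 2 sexes. Female WT libraries held 127, 132, 128 and 127 CPM, and female KO libraries 113, 113, 118 and 118 CPM, with no overlap and a log2 fold change of -0.16 ± 0.033 (edgeR adjusted p = 2.90e-04). Male WT libraries held 118, 122, 111 and 112 CPM, and male KO libraries 126, 122 and 130 CPM. There the lowest KO library, at 121.8 CPM, lay inside the WT range, and the log2 fold change was 0.12 ± 0.036 (edgeR adjusted p = 0.0107). Without male KO replicate 3 the male value was 0.10 with an adjusted p of 0.106. The difference between the effects was -0.28 ± 0.049 (edgeR adjusted p = 6.06e-05). The male and female effects, 1.09-fold and 1.11-fold, were larger in size than those of 60.2% and 55% of the genes tested. Pax8 (chromosome 2, 24420560 to 24475599, minus strand) overlaps the transcript Gm13415 on the other strand over 6.06% of its exon length. Its upstream sequence, shown for the opposite directions by sex, has a CCAAT match in capitals 57 bases before the RefSeq start site.
Pax8, chr2:24475600-24475849, minus strand: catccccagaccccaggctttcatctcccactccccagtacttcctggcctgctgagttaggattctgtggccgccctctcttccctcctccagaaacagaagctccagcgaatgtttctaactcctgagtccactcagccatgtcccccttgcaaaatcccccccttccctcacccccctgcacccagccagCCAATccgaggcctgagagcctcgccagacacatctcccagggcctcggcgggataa

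The scarce members gave fewer calls. Hnf4a, with 11 to 35 counts per library, was at 0.906 ± 0.244 CPM in male WT, 0.794 ± 0.224 in male KO, 0.845 ± 0.0963 in female WT and 1.11 ± 0.254 in female KO (SD). These groups overlap, and the log2 fold changes of -0.23 (95% interval -0.82 to 0.35) and 0.37 (-0.15 to 0.90) had wide intervals, with edgeR adjusted p of 0.641 and 0.258. Its antisense transcript Hnf4aos had 1 count in all 15 libraries together. Hnf4g libraries held 2.13, 2.13, 2.20 and 2.22 CPM in female WT and 1.14, 1.60, 1.80 and 1.76 CPM in female KO. They did not overlap, but the log2 fold change of -0.45 ± 0.19 missed the threshold (edgeR adjusted p = 0.0592). In male cells Hnf4g was at 1.08 ± 0.302 CPM in WT and 1.39 ± 0.170 in KO (0.40 ± 0.24, edgeR adjusted p = 0.260). Emx1 was called lower in female KO (-0.66 ± 0.27, edgeR adjusted p = 0.0467), with libraries at 1.32, 1.06, 2.15 and 1.31 CPM in WT and 1.14, 0.948, 0.646 and 0.990 CPM in KO. These ranges overlap, and the call was lost without female WT replicate 3 (-0.42, adjusted p = 0.248) and in 7 other fits that leave out a library, as well as with DESeq2 (0.0659) and limma-voom (0.0681). In male cells the Emx1 estimate was -0.10 ± 0.28 (edgeR adjusted p = 0.851).

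**Figure D2:**
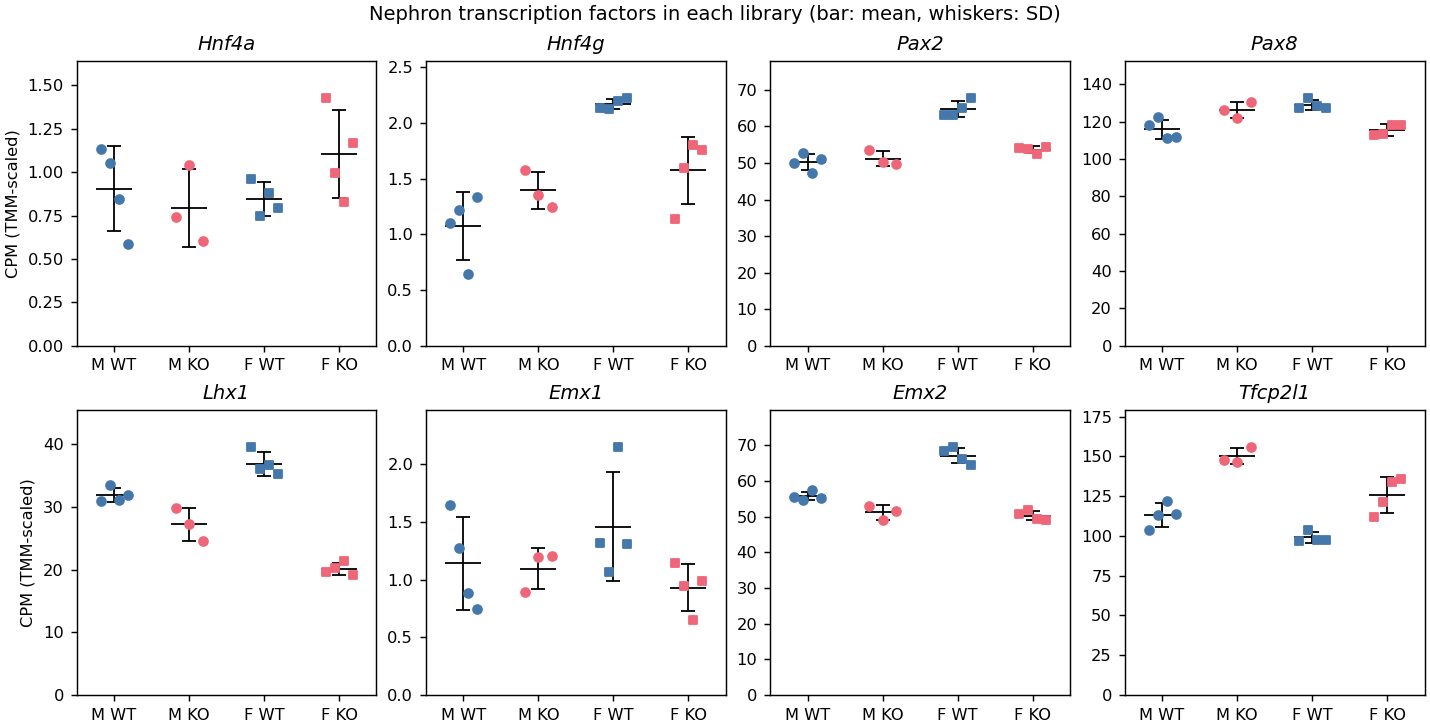
TMM-scaled CPM of the 8 factors in each of the 15 libraries, in the groups M WT, M KO, F WT and F KO, with the mean as a bar and the SD as whiskers. Axes start at 0 and differ between genes. Lhx1 in female KO sits at 19.1 to 21.3 CPM, under all other libraries, and Tfcp2l1 is higher in KO than in WT in both sexes.

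Counted over the 8 factors, 2 rose (Tfcp2l1 and Pax8) and 2 fell (Lhx1 and Emx2) in male KO. Over all genes tested 20.2% were called in that comparison, 10.1% higher and 10.1% lower, and among genes averaging 20 CPM or more it was 24.3%. Without male KO replicate 3 the count of called factors drops from 4 to 1, which is Tfcp2l1. In female KO, 1 rose (Tfcp2l1) and 5 fell (Lhx1, Emx2, Pax2, Pax8 and Emx1), where 39.3% of all genes were called (20.7% higher and 18.6% lower, so that 52.7% of calls were higher, against 39.9% with library size as the only scaling) and 46.4% of those at 20 CPM or more. Lhx1 and Emx2 were called lower in both sexes, as were 5.01% of all genes, and Tfcp2l1 higher in both, as were 7.38%. WT and KO ranges did not overlap for 3 factors in male cells, against 27.7% of all genes tested (13.7% with KO lower), and for 6 in female cells, against 36.1% (16.7% with KO lower). The median log2 fold change of the 8 was -0.04 in male and -0.34 in female cells, beside 0.00 over all tested genes in both. The KO effect differed between the sexes for 4 factors (Lhx1, Emx2, Pax2 and Pax8), each further down in female cells, where 15.6% of all genes were called in either direction (19.9% of those at 20 CPM or more) and 5.89% in that direction. Of the genes called for this difference 62.4% had the higher KO effect in female cells, and 46.3% with library size as the only scaling. Female KO was not called against male KO for Emx2 (-0.03 ± 0.043, edgeR adjusted p = 0.789) or Pax2 (0.07 ± 0.044, adjusted p = 0.422). Female WT was above male WT for both (0.26 ± 0.038 and 0.37 ± 0.040). With the counts of each group summed to 1 value per pool and sex as a term, which leaves 1 residual degree of freedom, 0 of the 8 were called and 0.00719% of all genes, or 1 gene. At an unadjusted p under 0.05 there were 3 of the 8, against 17.7% of all genes (edgeR unadjusted p = 3.49e-04 for Tfcp2l1, 0.0257 for Emx2 and 0.0300 for Lhx1). In that fit the KO effect was 0.39 (95% interval 0.27 to 0.50) for Tfcp2l1, -0.55 (-1.01 to -0.09) for Lhx1 and -0.27 (-0.49 to -0.05) for Emx2.

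**Figure D3:**
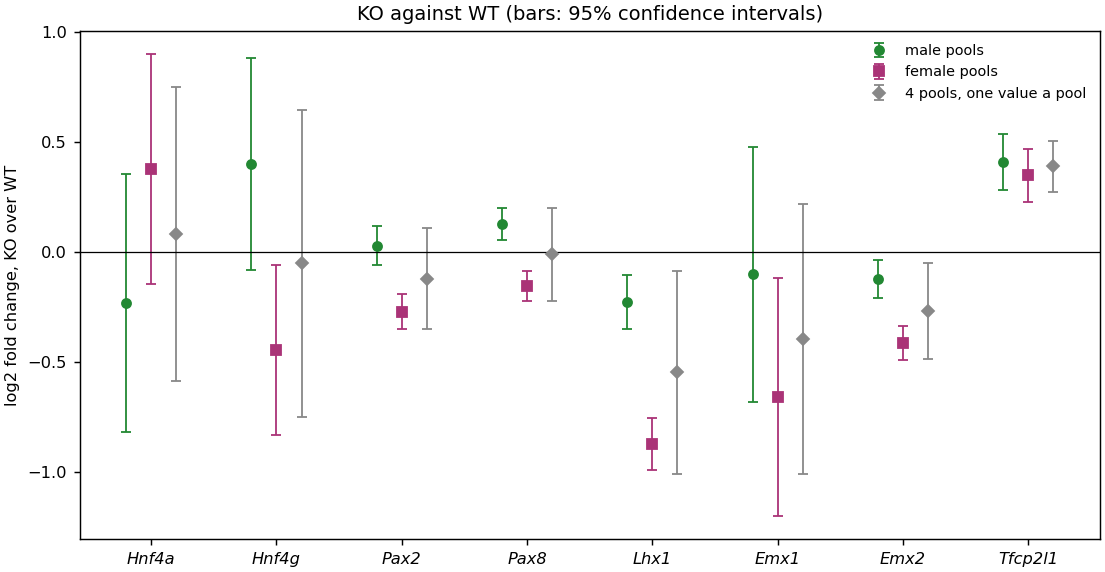
Log2 fold change of KO over WT for each factor in male pools (circles), female pools (squares) and over the 4 pools with 1 value each (diamonds), with 95% confidence intervals. Tfcp2l1 lies above 0 in all 3 fits, Lhx1 and Emx2 lie below 0 in all 3, and the female values of Pax2 and Pax8 are below the male ones.

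Ratios between factors within a library do not depend on how libraries are scaled. The count of Lhx1 per count of Pax2 was 0.635 ± 0.0175 (SD) in male WT, 0.531 ± 0.0329 in male KO, 0.571 ± 0.0435 in female WT and 0.375 ± 0.0238 in female KO. WT and KO were separate in both sexes. Tfcp2l1 per count of Pax8 was 0.980 ± 0.0968 in male WT and 1.19 ± 0.0186 in male KO, and 0.768 ± 0.0107 in female WT and 1.09 ± 0.0705 in female KO, again with no overlap. Pax8 per count of Pax2 was 2.31 ± 0.0783 and 2.47 ± 0.141 in male WT and KO, which were barely separate (2.357 and 2.359 at the nearest libraries), and 1.99 ± 0.0905 and 2.15 ± 0.0775 in female WT and KO, which overlapped.

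**Figure D4:**
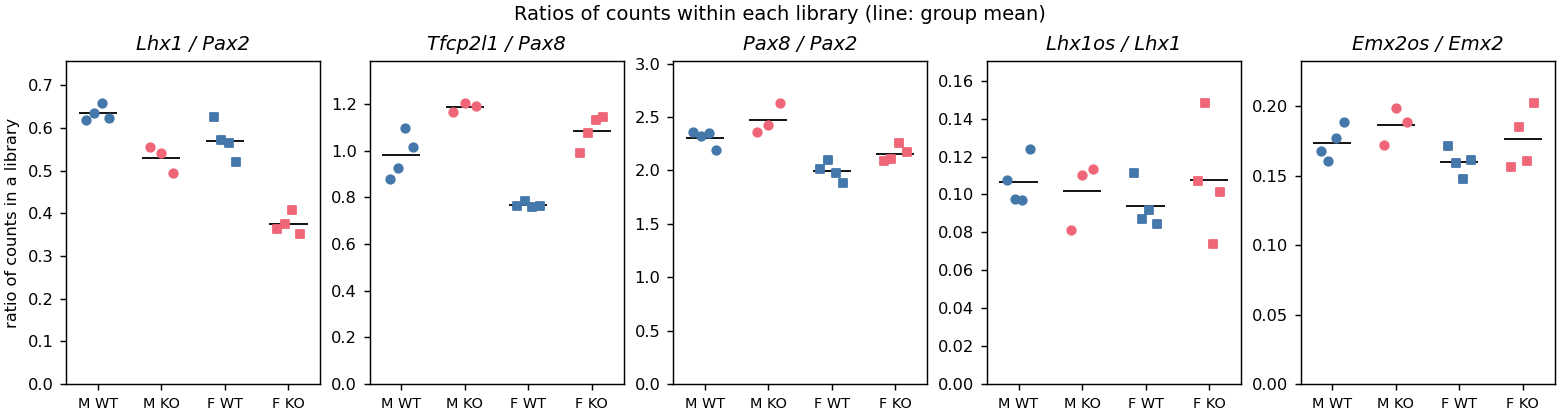
Ratio of the counts of a pair of genes in each library, by group, with the group mean as a line and axes from 0. Lhx1 per Pax2 is lower in KO and Tfcp2l1 per Pax8 is higher in KO in both sexes, while the 2 noncoding neighbours keep overlapping ratios to Lhx1 and Emx2.

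Female and male pools of the same genotype also differed. These comparisons use the same libraries as those above. In WT, 5 factors were higher in female cells: Hnf4g (1.04 ± 0.20 on the log2 scale, edgeR adjusted p = 1.18e-04), Pax2 (0.37 ± 0.040, adjusted p = 4.55e-09), Emx2 (0.26 ± 0.038, adjusted p = 9.82e-07), Lhx1 (0.21 ± 0.053, adjusted p = 0.00241) and Pax8 (0.15 ± 0.033, adjusted p = 4.74e-04). Tfcp2l1 was lower in female WT (-0.19 ± 0.057, adjusted p = 0.0181), a call lost without male WT replicate 4 (adjusted p = 0.0526), and its ranges overlapped. Of all genes tested, 28.6% were called in this comparison, 12.6% higher and 16.0% lower in female cells. Higher genes were 44.1% of those called, and 55.2% with library size as the only scaling, so the majority direction depends on the scaling. In KO, 0 were higher in female cells, and Lhx1 (-0.44 ± 0.064, adjusted p = 8.00e-06), Tfcp2l1 (-0.25 ± 0.060, adjusted p = 0.0111) and Pax8 (-0.13 ± 0.036, adjusted p = 0.0185) were lower, where 9.20% of all genes were called, 4.94% higher and 4.26% lower. The ranges of these 3 did not overlap, as for 9.59% of all genes with female KO lower. Without male KO replicate 3 only Lhx1 was still called there. The Pax8 call was also lost without male KO replicate 1 (adjusted p = 0.0611) and female KO replicate 2 (0.0634).

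RefSeq promoter windows on GRCm38.p6, 250 bases before to 50 after a start site, were given for 7 of the 8 factors, in 10 windows. TATAAA stood in the window of Tfcp2l1 alone among these, beside 13.6% of all 32851 windows. CCAAT stood in the windows of Pax8, Lhx1, Emx2 and both of Hnf4a, beside 37.4% of all. TAATTA, a core recognised by many homeodomain proteins, stood in the Emx2 window and in 1 of the Hnf4a windows, beside 5.29% of all. The HNF4 direct repeat and the TFCP2L1 repeat that were also searched (0.0396% and 3.44% of all windows) were in no member's window. Both strands were searched, TATAAA and CCAAT were chosen after the sequences were seen, and a match or its lack is a description of these letters alone. In GENCODE M21, 0 of the 50-base words in the transcripts of Hnf4a, Hnf4g, Pax2, Lhx1 and Emx1 occurred in another gene. The shares in Pax8 (4.43%), Emx2 (7.18%) and Tfcp2l1 (0.927%) lay in Gm13415, in Emx2os, and in Gm15535 and Gm23497, and not in a paralog.

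Genes that work with the factors were taken from lists, and the shares of all genes called in each comparison, given above, are the background for their counts. Of 16 genes that act with HNF4, 14 were tested. In male KO 1 rose and 1 fell, the latter being the orphan receptor gene Nr2f1 (-0.70 ± 0.16, edgeR adjusted p = 0.00156). In female KO 1 rose, the coactivator Crebbp (0.15 ± 0.047), and 5 fell, led by Ppargc1a (-0.77 ± 0.22) and Foxa3 (-0.74 ± 0.22). Ppargc1a and Foxa3 were scarce, at a mean of 2.051 CPM or less in each group. The list median was -0.03 in male and -0.07 in female cells. Of 34 proximal tubule genes that depend on hepatocyte nuclear factors, 17 were tested, with 0 higher and 3 lower in male KO (median -0.105) and 3 higher and 3 lower in female KO (median 0.145). The lower ones included the brush border enzyme gene Ggt1 (-0.37 ± 0.063 in male, -0.95 ± 0.057 in female) and Lrp2 (-0.44 ± 0.076 and -0.68 ± 0.074). The higher ones in female KO were led by the fatty acid carrier Fabp1 (0.45 ± 0.14) and the creatine synthesis enzyme gene Gatm (0.42 ± 0.11).

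Among 24 genes of nephron induction and branching that lie downstream of or beside PAX2, PAX8 and LHX1, 20 were tested. Male KO had 1 higher and 4 lower (median -0.11), and female KO 8 higher and 7 lower (median 0.01). The receptor gene Ret, a ureteric bud gene controlled by PAX2 and PAX8 in development, was lower in male KO (8.60 ± 0.0657 to 5.65 ± 0.832 CPM, -0.60 ± 0.11, edgeR adjusted p = 6.21e-05) and higher in female KO (4.38 ± 0.632 to 6.26 ± 0.246 CPM, 0.51 ± 0.11, adjusted p = 3.37e-04). Those directions are the reverse of those of Pax8, and a link between the genes was not tested. For Ret the difference between sexes passed (1.11 ± 0.15, edgeR adjusted p = 1.63e-06). Wnt11, a signal of the ureteric tip, moved like Ret (-0.51 ± 0.095 and 0.41 ± 0.094, difference 0.92 ± 0.13, edgeR adjusted p = 3.93e-06). Female KO was not called against male KO for Ret (0.15 ± 0.11, edgeR adjusted p = 0.531) or Wnt11 (0.15 ± 0.099, adjusted p = 0.448). Female WT was below male WT for both (-0.97 ± 0.10 and -0.77 ± 0.0895). The bone morphogenetic protein gene Bmp7 fell in both (-0.35 ± 0.050 and -0.87 ± 0.045), and the ETS factor gene Etv4, which acts downstream of RET, rose in both (0.25 ± 0.056 and 0.52 ± 0.052). In female KO the Eyes absent gene Eya1 (0.84 ± 0.24) and the cadherin gene Cdh6 (0.55 ± 0.071) rose. Eya1 was scarce, at a mean of 1.21 CPM or less in each group. Of 14 partners of PAX proteins, all tested, 1 was higher and 1 lower in male KO, and 3 higher and 2 lower in female KO (medians -0.06 and -0.02). Paxip1, which links PAX2 to histone methylation, rose by 0.19 ± 0.049 in male and 0.18 ± 0.046 in female KO, and the corepressor gene Tle2 fell by 0.35 ± 0.11 and 0.61 ± 0.097.

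Of 19 LIM homeodomain genes and partners, 11 were tested, with 0 higher and 2 lower in male KO and 1 higher and 4 lower in female KO (medians -0.05 in both). Ssbp2, an adaptor of the complex through which LHX1 acts, fell in both sexes along with Lhx1 (18.4 ± 0.605 to 11.1 ± 1.09 CPM in male, 19.5 ± 0.602 to 14.3 ± 1.37 CPM in female, edgeR adjusted p = 6.27e-09 and 2.36e-06). Lmo2, at a mean of 1.343 CPM or less in each group, fell in male KO (-0.79 ± 0.27). In female KO Lhx9 fell (-0.44 ± 0.12) and Lmx1b rose (0.53 ± 0.12). Of 14 further PAX, EMX-type and CP2 or grainyhead family genes, 5 were tested, all in the CP2 and grainyhead families. Grhl3, at a mean of 2.67 CPM or less in each group, rose in male KO (0.57 ± 0.19). Grhl2, which keeps epithelial junctions, fell in female KO (-0.27 ± 0.040).

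Of 24 collecting duct and intercalated cell genes linked to TFCP2L1, 11 were tested. Male KO had 1 higher and 2 lower (median -0.03) and female KO 3 higher and 5 lower (median -0.43), beside a rise of Tfcp2l1 in both. Foxi1 and the water channel Aqp2 had at most 1 count in any library, and the proton pump subunit Atp6v1b1 and the anion exchanger Slc26a4 at most 2. Among the tested genes the keratin Krt7 rose in both (0.33 ± 0.029 and 0.29 ± 0.026) and the receptor gene Kit fell in both (-0.75 ± 0.105 and -0.43 ± 0.10). Hsd11b2, which inactivates glucocorticoids, fell in male KO (-0.48 ± 0.076). The sodium channel genes Scnn1b (-1.74 ± 0.17) and Scnn1g (-1.41 ± 0.19) fell in female KO. Carbonic anhydrase Car2 rose there (0.23 ± 0.064). The summed CPM of the list, most of it Krt7 and the Notch ligand gene Jag1, was 2726 to 2792 in WT and 3026 to 3063 in KO for male cells, and 2440 to 2457 in WT and 2802 to 2831 in KO for female cells.

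Of 30 other segment transcription factors of the nephron, 29 were tested, with 4 higher and 3 lower in male KO (median -0.115) and 5 higher and 11 lower in female KO (median -0.20). Sox9, a factor of tubule repair, rose in both (0.25 ± 0.040 and 0.22 ± 0.037), and Klf5 rose in male KO (0.28 ± 0.0535). Foxc2 fell in male KO and rose in female KO (-0.34 ± 0.079 and 0.41 ± 0.072, difference 0.75 ± 0.11, edgeR adjusted p = 2.77e-06). Tbx3 fell in male KO (-0.45 ± 0.11). In female KO Elf5 (-1.20 ± 0.34) and Klf15 (-0.83 ± 0.33), both at a mean of 1.59 CPM or less in each group, fell and the stromal factor gene Foxd1 rose (0.52 ± 0.13). Thick ascending limb and distal tubule markers, 7 of 10 tested, had 1 higher and 2 lower in male KO and 0 higher and 4 lower in female KO. Their summed level ran from 40.4 to 48.1 CPM (WT) and from 35.9 to 37.7 (KO) in male cells, and from 52.3 to 56.4 (WT) and from 25.6 to 32.5 (KO) in female cells. Most of that sum is the magnesium channel gene Trpm6, at a mean of 31.2 CPM in male WT. Trpm6, Cldn8 and Kl had the order of group means of Lhx1, while the other tested markers, Cldn16, Slc12a1, Umod and Slc12a3, did not. That order is not particular to this list, since Ggt1 and Bmp7 had it too. The part of these markers in the Lhx1 result was not tested. The tight junction gene Cldn8 (-1.20 ± 0.185 in male, -2.33 ± 0.15 in female KO) and the hormone co-receptor gene Kl (-0.72 ± 0.15 and -1.93 ± 0.14) were called lower in both sexes. For other cell types, 0 of 9 podocyte markers were higher and 3 lower in male KO, and 4 higher and 1 lower in female KO. Of 11 endothelial markers 0 were higher and 10 lower in male KO, and 3 higher and 0 lower in female KO. The 8 tested stromal markers had 0 higher and 6 lower in male KO, and 2 higher and 4 lower in female KO. Leukocyte markers, 9 of 11 tested, had 5 higher and 0 lower in male KO and 4 higher and 0 lower in female KO. Of 13 genes of epithelial identity and dedifferentiation 7 were higher and 2 lower in male KO, and 5 higher and 4 lower in female KO, with the adhesion gene Vcam1 (0.93 ± 0.062 and 2.07 ± 0.065) and the keratin gene Krt19 (0.48 ± 0.032 and 0.47 ± 0.030) leading the rise in both. The part of these lists in the results on the 8 factors was not tested.

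Genes with the pattern most like each factor were found by Pearson correlation of log2 CPM over the 15 libraries, among 12043 or 12044 genes averaging 1 CPM or more, as a description. Libraries of a pool share their cells, so the correlation mostly follows the 4 group levels. For Lhx1 they were Stard5, a sterol-binding protein gene (r = 0.980), and the cholesterol exporter gene Abca1 (0.972). For Emx2 they were Lrrn1 (0.973) and Ggt1 (0.971), and for Tfcp2l1 the kinetochore gene Zwilch (0.971) and the plexin gene Plxnb2 (0.964). Pax2 was closest to the growth factor signalling inhibitor gene Spry1 (0.956) and the interferon-induced Ifit3 (0.940), and among those most like Pax8 was Gprc5c (0.915). The scarce genes gave Def8 (0.940) and the retinoic acid synthesis gene Aldh1a2 (0.923) for Hnf4g, Lysmd2 (0.836) for Hnf4a, and Idh2 (0.883) and Aldh1b1 (0.834) for Emx1. Among the factors themselves r was 0.842 for Hnf4g with Pax2, 0.830 for Lhx1 with Emx2, 0.769 for Pax2 with Emx2, and -0.784 for Emx2 with Tfcp2l1.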

How the data were processed

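RNA was measured in 15 libraries of 4 pools. The authors deposited raw counts per gene symbol, per the submitters' processing notes with STAR 2.6.1 against mm10 and featureCounts, whose version is not given. Those notes list edgeR 3.26.8 with limma 3.40.6 too. The deposited CPM values were used only as a check, and differ from CPM recomputed with plain library totals by at most 5.09e-11. The strand setting and annotation of the counting are not given in the sources used here.

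The main test was run with edgeR 4.0.16 under R 4.3.3. The filterByExpr filter used a minimum count of 10 and a minimum total of 15. Counts were scaled by TMM and fitted with robust quasi-likelihood, 1 mean per group over all 15 libraries. What edgeR terms the biological coefficient of variation was 3.59%. Here it is a spread between technical replicates of a pool and holds none between mice or cultures. Benjamini-Hochberg adjustment ran over all 13912 genes of a comparison, and a gene was called at an adjusted p below 0.05. Standard errors are the log2 fold change over the square root of F. Depth puts 3 counts at 0.0971 to 0.170 CPM. Figures were drawn with matplotlib 3.10.9.

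Within each group, counts differed by more than sampling noise in every pair of libraries (chi-square per degree of freedom 1.51 to 7.30). Libraries were therefore kept separate in every fit except the one over the 4 pools. The named genes are the 8 factors, up to 2 called genes per direction and KO comparison from each of 15 lists, taken by fold, and the 2 genes most like each factor with a mean of at least 1 CPM. Some genes that this rule names are not reported here. Members and lists were chosen with earlier results of these data known. Alternatives were other scalings, filters, tests (DESeq2 1.42.0, limma-voom 3.58.1), the replicate number as a block, and fits without a library.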

Additional observations from a re-analysis of the deposited data

Results flagged for a closer look

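The KO effect differed between the sexes, by the interaction term of the edgeR fit, for Lhx1 (female minus male -0.65 on the log2 scale), Pax2 (-0.30), Emx2 (-0.29) and Pax8 (-0.28). For Lhx1 and Emx2 both effects were negative, for Pax2 the male value was near 0, and for Pax8 the signs were opposite. Emx2 and Pax2 were not called between the KO pools of the sexes, while both were higher in female WT than in male WT. Each sex is a single WT pool and a single KO pool, so neither sex nor genotype can be told apart from pool.

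Of 24 groups of 4 libraries examined, 1 held a library far from the others relative to the range: Tfcp2l1 in female WT, where replicate 2 was at 103.9 CPM and the other 3 between 97.1 and 97.7 CPM. Chance flags about 1 in 20 such groups.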

How the results depend on the processing

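Over the KO comparisons in each sex, single factors kept direction and side of the threshold in 131 of 138 fits with another scaling, filter, test or sample set, and in 221 of 240 fits that left out a library. The directions that turned were those of uncalled factors: Pax2 in male cells (0.03, range -0.002353 to 0.0526 with a library left out, -0.002353 without male KO replicate 1 and -0.0009838 without male WT replicate 3), Emx1 in male cells (-0.10, range -0.23 to 0.19, with 0.189 without male WT replicate 1 and 0.03032 without male KO replicate 1), and Hnf4a between WT sexes (-0.13, range -0.26 to 0.03, with 0.02688 without male WT replicate 1). The cause was not tested.

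With a library left out, 1 to 4 factors were called in male KO, 5 to 7 in female KO, 4 to 5 for the difference, 5 to 6 between WT sexes and 1 to 3 between KO sexes. Genes called ranged from 2051 to 3052 in male and 4900 to 5766 in female KO. Hnf4g in female KO passed with library size as the only scaling (adjusted p = 0.0387), with only the female groups (0.0474) and without male WT replicate 3 (0.0423), and missed in the other alternatives run.

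Over the 4 pools, genes called went from 1 to 0 with DESeq2 size factors or the filter of 5 CPM in 3 libraries, to 2 with the upper quartile, to 268 with library size alone and to 267 without a filter. In the last 2 fits 1 factor, Tfcp2l1, was called (adjusted p = 0.0273 and 0.0243). The count over pools thus depends on scaling and filter. With library size alone the median of all genes in female KO shifted by -0.04 on the log2 scale, and the shares of calls that were higher moved as given with the counts, in KO between the sexes from 53.7% to 45.3%.

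Same-numbered libraries of different groups did not deviate together (mean r = 0.0342, lowest -0.0285), and the labels state nothing shared, so no pairing was used. With a replicate block 4, 6 and 5 factors were called in male KO, female KO and the difference, and 3092, 5909 and 2491 genes. The added factor was Hnf4g (difference -0.88, adjusted p = 0.0442, against 0.0545), and the block changed no other call of a factor. That difference also passed with library size alone (0.0399), limma-voom (0.0492) and without male WT replicate 2 (0.0463), male WT replicate 4 (0.0363) or female KO replicate 3 (0.0458).

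Hnf4a, Hnf4g and Emx1 had 11 to 56 counts a library, and in the KO comparisons their standard errors (0.189 to 0.287 on the log2 scale) were larger than those of the other 5 factors (0.0333 to 0.0601).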
